A study of Mus musculus with 6 samples.

Results

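Fatty acid uptake and activation covers the genes that release fatty acids outside the fat cell, carry them across its membrane, join them to coenzyme A and hold them in solution. The 10 genes listed for it were Cd36, Lpl, Fabp4, Fabp5, Slc27a1, Slc27a4, Acsl1, Acsl3, Acsl4 and Dbi. A gene was measured through every probe whose platform annotation gave that symbol and no other, which left 8 genes with 10 of the 36227 probes of the array. Cd36 and Acsl1 had no such probe and were not analysed here, and 1 probe annotated to both Slc27a1 and another gene was left out.

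The arrays were one-colour CodeLink mouse whole genome arrays hybridised with total RNA of 3T3-L1 adipocytes, cells of a mouse line that fill with lipid under an adipogenic mixture. There were 3 arrays of UCP1 adipocytes, made to express uncoupling protein 1, and 3 arrays of Tet-off control adipocytes, carrying only the Tet-off plasmid, all taken 10 days after differentiation. The labels do not say whether the UCP1 cells also carried the Tet-off plasmid, whether either line was a single clone, or whether replicate arrays stood for separate cultures. The p-values therefore reflect the spread among these 6 arrays, part or all of which may be technical. The question was what forced UCP1, a mitochondrial carrier that lets protons return without making ATP, does to adipocyte gene expression.

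Adipocytes take up fatty acids that lipoprotein lipase frees from circulating triglyceride. At the plasma membrane CD36 and the fatty acid transport proteins of the Slc27 family promote entry, and acyl-CoA synthetases trap the fatty acid as acyl-CoA. Inside the cell the fatty acid binding proteins carry the free acid and the acyl-CoA binding protein carries its activated form, which then enters triglyceride or is burned in mitochondria. Several of these genes are well-known targets of PPARγ, the nuclear receptor that drives fat cell formation, and Fabp4 is a standard marker of the mature adipocyte.

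In these data the fatty acid transporter gene Slc27a4 was the 1 member gene with a probe past the threshold, lower in UCP1 adipocytes. The bright adipocyte genes Lpl, Fabp4, Fabp5 and Dbi, the transporter Slc27a1 and the synthetase Acsl3 did not pass on any probe, with changes between -0.25 and 0.010 on the log2 scale. Acsl4 was dim on all arrays, and its change of -0.80 did not pass. A probe was called when its adjusted p was under 0.05 in limma's moderated test across all 36116 tested probes, and 1 of the 10 member probes was called, against 2.83% of all tested probes in either direction and 2.03% lower in UCP1. All 3 UCP1 readings lay below all 3 control readings on that 1 probe of the 10, as they did on 14.0% of all tested probes. A count of 1 does not set the members apart from the array.

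The array UCP1 3 stood apart in its highest intensity, at 683, against 950.0 and 921 on the other UCP1 arrays and 932 to 943 on the control arrays. Over all probes it was not the least regular array. Its weight by limma's array weights was the highest, at 1.56, and that of UCP1 1 the lowest, at 0.49. Array medians were 1.04 or 1.05 throughout, while the 99th percentile of intensity lay at 185 to 225 on UCP1 arrays and at 255 to 279 on control arrays. The brightest 1% of tested probes, 361 in number, had a median change of -0.44 in the deposited scaling and of -0.04 after quantile normalization. Changes of the bright member genes are therefore given in both scalings, and without UCP1 3 where that turns them. Ucp1 itself read 2.34, 2.02 and 1.54 on UCP1 arrays, against 0.222, 0.232 and 0.278 on control arrays, as the labels say.

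**Figure D1:**
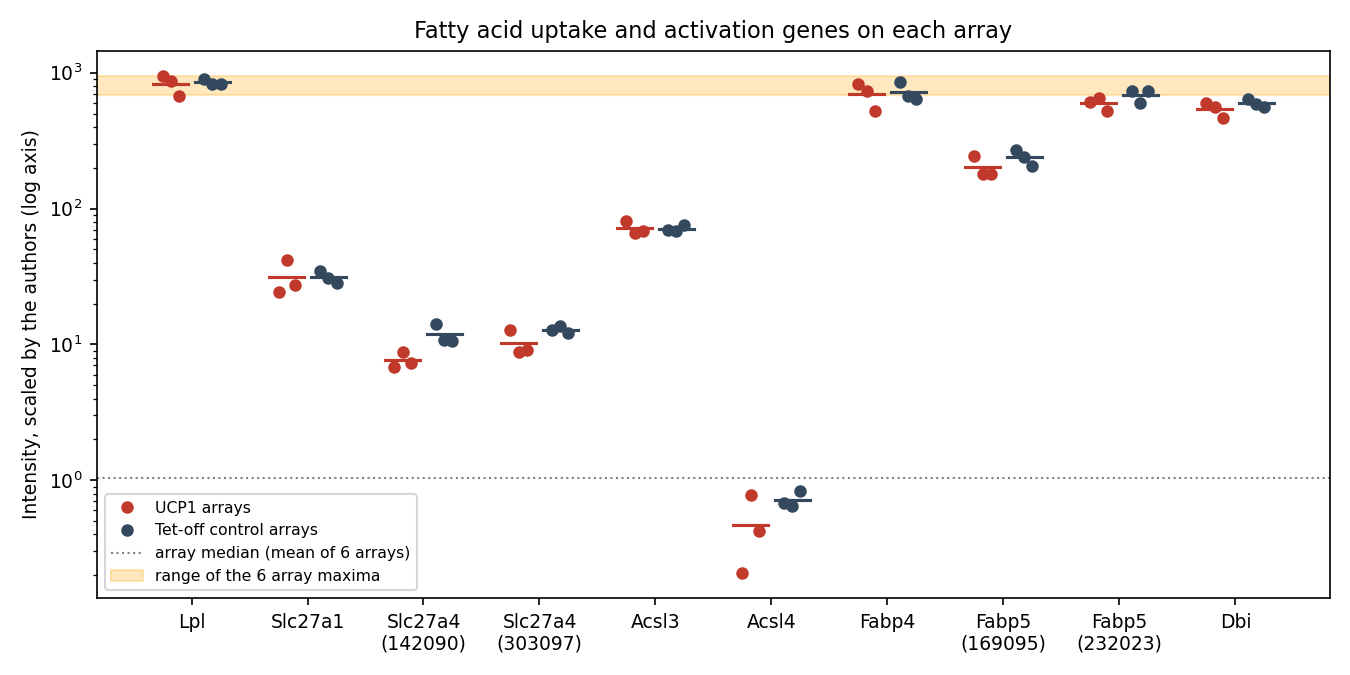
Intensity of each of the 10 probes on each array, on a log axis, with UCP1 arrays in red left of Tet-off control arrays in dark blue and a bar at each group's mean. The groups lie apart on the Slc27a4 probe 142090 alone, Acsl4 lies below the array median, and Lpl, Fabp4, Fabp5 (232023) and Dbi lie in or just under the band of the array maxima.

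Lpl encodes lipoprotein lipase, the secreted enzyme that frees fatty acids from the triglyceride of lipoproteins. Its probe read 950.0, 873 and 669 on UCP1 arrays 1 to 3, against 904, 826 and 828 on control arrays 1 to 3. The UCP1 arrays held both the highest and the lowest of the 6 readings, so the groups overlapped. Lpl averaged 831 ± 145 in UCP1 adipocytes and 853 ± 44.5 in control adipocytes (SD, n = 3 each). In log2 units the change was -0.052 ± 0.248 (SE, limma, adjusted p = 0.941), with a 95% interval from 0.663-fold to 1.40-fold.

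The Lpl probe was the brightest of all probes on UCP1 1 and ranked between 2 and 4 on the other 5 arrays. It reached 94.8% to 100% of the array maximum on UCP1 arrays and 87.9% to 95.9% on control arrays, so a true change could be hidden at the top of the scale. Its change was 0.089 after quantile normalization (adjusted p = 0.703), 0.28 after cyclic loess (adjusted p = 0.233) and 0.10 without UCP1 3 (adjusted p = 0.869), none of them past the threshold.

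Slc27a1, the fatty acid transport protein 1 of fat and muscle, which also has acyl-CoA synthetase activity, read 24.3, 41.5 and 27.4 on UCP1 arrays, against 34.8, 31.0 and 28.1 on control arrays. The lowest 2 and the highest of the 6 readings were all on UCP1 arrays. Mean intensity was 31.1 ± 9.13 in UCP1 adipocytes and 31.3 ± 3.38 in control adipocytes (SD, n = 3 each), a change of -0.043 ± 0.180 (SE, limma, adjusted p = 0.934). The interval ran from 0.739-fold to 1.28-fold. Its sign turned under both other scalings, at 0.11 each, again without passing.

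Slc27a4, the fatty acid transport protein 4, prefers long and very long chains and likewise joins them to coenzyme A. Probe 142090 read 6.85, 8.76 and 7.30 on UCP1 arrays, against 14.1, 10.8 and 10.6 on control arrays. All 3 UCP1 readings lay below all 3 control readings. Mean intensity was 7.64 ± 0.995 in UCP1 adipocytes and 11.8 ± 2.003 in control adipocytes (SD, n = 3 each), 1.54-fold lower. On the log2 scale Slc27a4 fell by 0.63 ± 0.143 (SE, limma, adjusted p = 0.0405), with an interval from 0.522-fold to 0.804-fold.

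The other Slc27a4 probe, 303097, annotated to the same transcript, read 12.7, 8.80 and 9.08 on UCP1 arrays, against 12.7, 13.7 and 12.1 on control arrays. UCP1 2 and UCP1 3 lay below every control, and UCP1 1 lay among them. The change was -0.35 ± 0.144 (SE, limma, adjusted p = 0.236), in the same direction as the called probe. Leaving out UCP1 1, this probe passed at -0.52 (adjusted p = 0.0215).

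The call on probe 142090 rested on its margin, since it kept its direction in every alternative run but passed in 7 of 17. Quantile normalization gave -0.51 (adjusted p = 0.104), cyclic loess -0.53 (adjusted p = 0.108), eBayes without its trend adjusted p = 0.285, and the replicate block adjusted p = 0.0646. Without the trend 0 of all tested probes passed, so that loss is not particular to this probe. The call was also lost without any 1 array other than UCP1 2, with adjusted p = 0.0612 and 0.199 without UCP1 1 and 3, and 0.155, 0.0783 and 0.0554 without control 1, 2 and 3. In bulk RNA of this kind, fewer cells of a type and less RNA per cell cannot be told apart.

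Acsl3 is a long-chain acyl-CoA synthetase of the endoplasmic reticulum and of growing lipid droplets. Its probe read 81.2, 66.1 and 67.8 on UCP1 arrays, against 69.6, 68.2 and 75.1 on control arrays. The groups overlapped, with UCP1 1 the highest and UCP1 2 the lowest. Acsl3 averaged 71.7 ± 8.29 in UCP1 adipocytes and 70.9 ± 3.69 in control adipocytes (SD, n = 3 each), and its change of 0.010 ± 0.136 (SE, limma, adjusted p = 0.981) had an interval from 0.820-fold to 1.24-fold. After quantile normalization it was 0.24 (adjusted p = 0.160).

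Acsl4, the synthetase that prefers arachidonic acid and other polyunsaturated fatty acids, read 0.207, 0.785 and 0.425 on UCP1 arrays, against 0.680, 0.644 and 0.829 on control arrays. It was the 1 member below the array median, above 13.7% to 44.6% of probes on UCP1 arrays and 40.8% to 45.5% on control arrays. UCP1 1 and UCP1 3 were lower than all controls, and UCP1 2 lay among them. The change of -0.80 ± 0.403 (SE) did not pass (limma, adjusted p = 0.349), and its interval, from 0.312-fold to 1.06-fold, was the widest of the 10. It was -0.54 with an offset of 0.2 added before log2, -0.31 without UCP1 1 and -1.27 without UCP1 2 (limma, adjusted p = 0.0590). The size thus depends on the treatment of dim values and on single UCP1 arrays.

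Fabp4, the adipocyte fatty acid binding protein also called aP2, read 828, 729 and 524 on UCP1 arrays, against 856, 675 and 635 on control arrays. UCP1 3 held the lowest reading, and the other UCP1 arrays lay between the controls. Fabp4 averaged 693 ± 155 in UCP1 adipocytes and 722 ± 118 in control adipocytes (SD, n = 3 each). The change was -0.072 ± 0.258 (SE, limma, adjusted p = 0.921), with an interval from 0.644-fold to 1.41-fold. It turned to 0.24 after quantile normalization, 0.25 after cyclic loess and 0.12 without UCP1 3, none past the threshold.

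Fabp5, the epidermal fatty acid binding protein, which fat cells and macrophages also make, had 2 probes. Probe 232023 read 611, 650.0 and 526 on UCP1 arrays, against 737, 594 and 735 on control arrays. Control 2 lay below both UCP1 1 and UCP1 2, so the groups overlapped, and the change was -0.21 ± 0.227 (SE, limma, adjusted p = 0.700). Probe 169095 read 244, 179 and 181 on UCP1 arrays, against 270.0, 241 and 204 on control arrays, with a change of -0.25 ± 0.192 (SE, limma, adjusted p = 0.562). UCP1 2 and UCP1 3 were lower than every control on this probe, and UCP1 1 was not. Both probes went the same way in the deposited scaling, while after quantile normalization they stood at 0.15 and 0.0061.

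Dbi encodes the acyl-CoA binding protein, which keeps long-chain acyl-CoA in solution and carries it to the enzymes that use it. Its probe read 602, 563 and 465 on UCP1 arrays, against 642, 591 and 558 on control arrays. Only UCP1 3 lay below every control reading. Dbi averaged 543 ± 70.6 in UCP1 adipocytes and 597 ± 42.5 in control adipocytes (SD, n = 3 each), a change of -0.14 ± 0.218 (SE, limma, adjusted p = 0.792) with an interval from 0.651-fold to 1.26-fold. After quantile normalization it was 0.26 (adjusted p = 0.189), and without UCP1 3 it was -0.034.

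**Figure D2:**
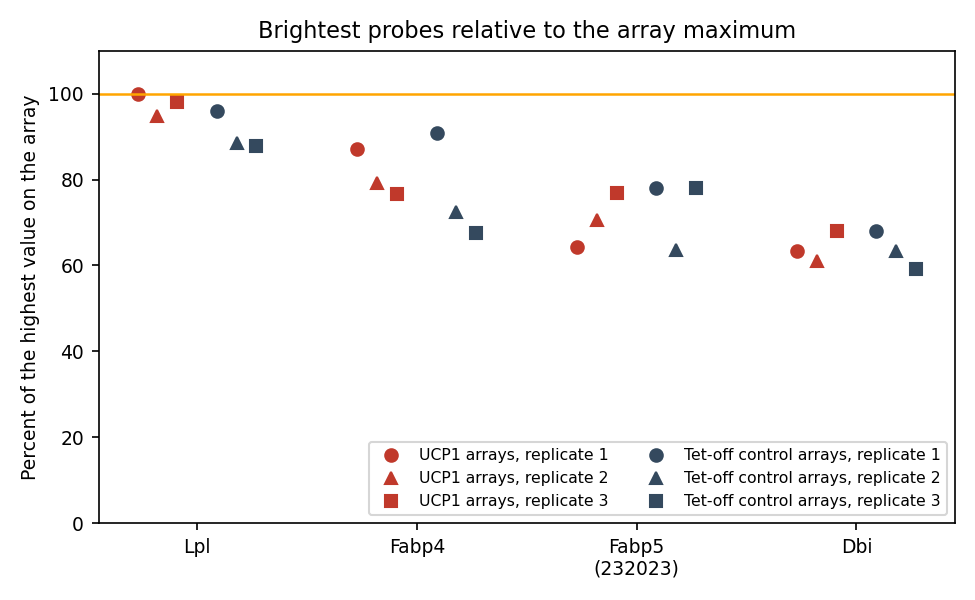
Intensity as a percent of the highest value on the same array for the 4 member probes that reached at least 50% of it, with UCP1 arrays in red left of Tet-off control arrays in dark blue and a symbol for each replicate. Lpl reads 94.8% to 100% on UCP1 arrays and 87.9% to 95.9% on control arrays, and the groups overlap for all 4 probes.

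Of the 10 probes, 4 reached at least 50% of the array maximum on some array, those of Lpl, Fabp4 and Dbi and the brighter one of Fabp5. Set against the maximum of its own array, Fabp4 stood at 87.1%, 79.1% and 76.7% on UCP1 arrays, against 90.8%, 72.3% and 67.5% on control arrays. Dbi stood at 61.1% to 68.1% on UCP1 arrays and 59.3% to 68.1% on control arrays. On this scale UCP1 3 was not the lowest of the 6 arrays for any of the 4 probes. Its maximum was the lowest of the 6, at 683, which by itself raises its percentages, so this says little of that array. The number of probes at or above 50% of the array maximum was 75, 116 and 143 on UCP1 arrays, against 204, 167 and 156 on control arrays.

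These 4 probes belonged to the brightest 361, whose median change was -0.44. Their own changes lay higher than those of 91.4% of these probes for Lpl, 90.0% for Fabp4, 85.3% for Dbi and 78.9% for Fabp5. That is a description, and whether the top of the scale limited how far these probes could move was not tested. The 4 changes turned positive when bright probes were rescaled, while both Slc27a4 probes and Acsl4 stayed below 0 in all 3 scalings.

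**Figure D3:**
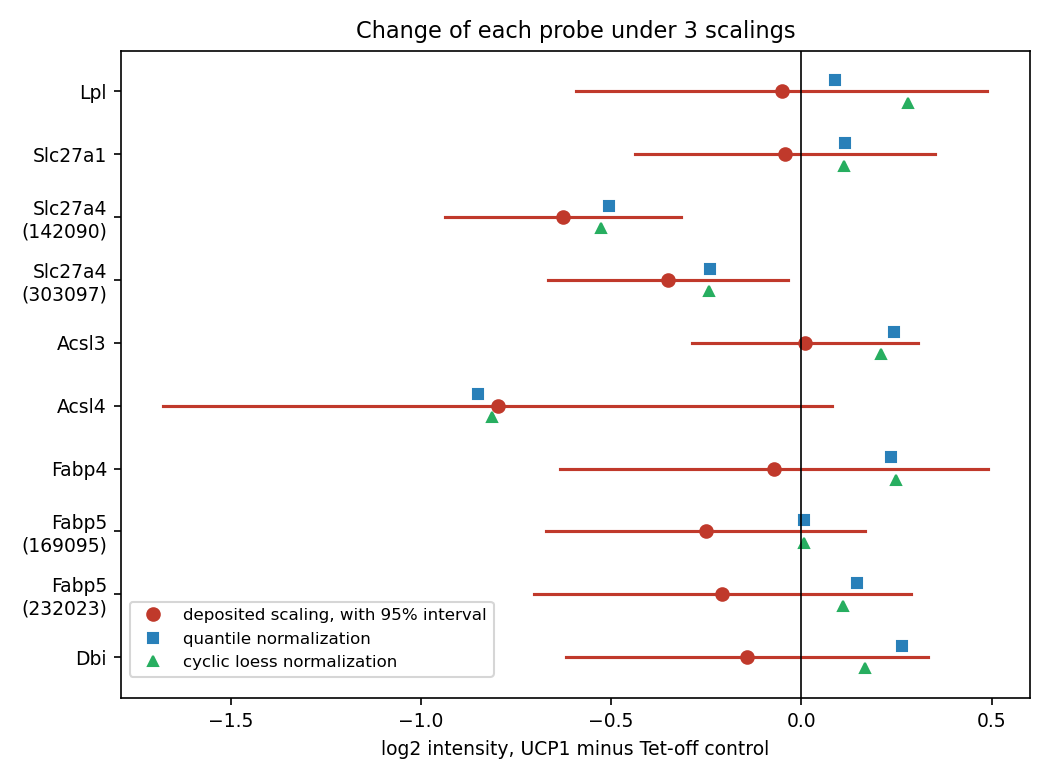
Change in log2 intensity, UCP1 minus Tet-off control, for each probe. Red circles with 95% intervals from limma give the deposited scaling, blue squares quantile normalization and green triangles cyclic loess. Both Slc27a4 probes and Acsl4 lie below 0 in all 3, and the other 7 probes lie above 0 under quantile normalization and cyclic loess.

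Across the members, 9 of 10 probes had a change below 0 in the deposited scaling, where 56.9% of all tested probes did. With each gene taken by its brightest probe, 7 of 8 genes lay below 0, against 60.1% of all genes, with a median of -0.11 against -0.083. Quantile normalization left 2 of the 8 below 0, at a median of 0.13 against 0.0088 for all genes, so the members have no common direction that holds in both scalings. By the brightest probe 0 of the 8 passed (limma), with 1 at an unadjusted p under 0.05, because the called Slc27a4 probe is the dimmer of its pair, and 0 passed by the ordinary test per probe. Over the whole array the ordinary test called only 2 probes lower and 1 higher.

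Related genes were also set against each other within each array, where a scale factor common to the array cancels. The log2 difference Fabp5 minus Fabp4 averaged -0.20 ± 0.223 in UCP1 adipocytes and -0.063 ± 0.238 in control adipocytes (SD, n = 3 each). Acsl4 minus Acsl3 differed by -0.81 between UCP1 and control adipocytes, and Slc27a4 minus Slc27a1, on the brighter Slc27a4 probe, differed by -0.31. The groups overlapped in each pair, and the exact two-sided permutation test gave p = 0.6, 0.4 and 0.6, each 0.6 after adjustment over the 3 pairs, where 3 against 3 arrays cannot go below 0.1. This test could not pass the threshold whatever the values, so it does not show whether the genes of a family changed alike. The 2 pairs that needed Acsl1 were not computed.

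Other genes of the pathway were followed in 3 lists of 77 genes, of which 67 were measured. Of these, 2 fell and 2 rose, where 2.92% of all genes fell and 1.13% rose by the brightest probe. At an unadjusted p under 0.05, 15.1% of all genes were lower and 5.73% higher. Of 17 measured partners of lipoprotein lipase and lipoprotein receptors, 2 fell and 0 rose, and at an unadjusted p under 0.05 (limma) 10 were lower and 0 higher. Their median change was -0.33 against -0.083 for all genes, and it was -0.18 against 0.0088 after quantile normalization and -0.20 against -0.0032 after cyclic loess. These 2 scalings each called 1 lower and 1 higher. All genes are not a like comparison, since 14 of the 17 lay above the array median on every array. In the deposited scaling the brightest 10% of tested probes had a median change of -0.19. Apoc3, the apolipoprotein that inhibits lipoprotein lipase, read 9.39, 8.9997 and 7.26 on UCP1 arrays, against 17.3, 12.9 and 13.7 on control arrays. It fell by 0.77 ± 0.143 on the log2 scale (SE, limma, adjusted p = 0.0177). Vldlr, a receptor that binds triglyceride-rich lipoproteins and helps the lipase act, read 10.9, 12.9 and 12.2 on UCP1 arrays, against 17.7, 17.2 and 17.2 on control arrays, and fell by 0.54 ± 0.110 (SE, limma, adjusted p = 0.0271). The groups did not overlap for either gene, as on 14.0% of all tested probes in that direction. Nor did they for some genes of this list that did not pass, such as Sel1l and Angptl4. The call on Vldlr was lost after quantile normalization (-0.41, adjusted p = 0.104), and its other probe, at -0.29, did not pass (adjusted p = 0.551).

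Of 23 other fatty acid transport and binding proteins 1 rose and 0 fell, and at an unadjusted p under 0.05 (limma) 4 were lower and 2 higher, Fabp12 and Cavin1. The median of -0.019 had no settled sign, at 0.095 after quantile normalization, 0.084 after cyclic loess and 0.025 without UCP1 3. Fabp12, a member of the fatty acid binding protein family, read 15.5, 11.9 and 11.1 on UCP1 arrays, against 7.53, 8.5025 and 7.70 on control arrays, with no overlap. The share of all probes set apart in this direction was not worked out, here or for Acss3 below. Fabp12 rose 1.61-fold, by 0.68 ± 0.137 on the log2 scale (SE, limma, adjusted p = 0.0239), and by 0.80 after quantile normalization (adjusted p = 0.00539). Its call was lost without control 1, 2 or 3, at adjusted p = 0.0969, 0.0533 and 0.0657 (limma). In the RefSeq annotation of GRCm38.p6, Fabp5, Pmp2, Fabp9, Fabp4 and Fabp12 follow one another on chromosome 3 with no other protein-coding gene between them. Pmp2 and Fabp9, further binding proteins of this row, were measured at 0.096 (adjusted p = 0.777) and 0.19 (adjusted p = 0.841), and Fabp5 and Fabp4 as above, so Fabp12 was the 1 gene of the 5 that passed. Fabp9 was dim, at 0.393 to 0.776 on UCP1 arrays and 0.280 to 0.678 on control arrays. Fabp4 and the brighter Fabp5 probe were near the array maximum. That these neighbours did not pass therefore does not show that they did not change.

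Of 27 other acyl-CoA synthetases, acyl-CoA binding proteins and thioesterases 1 rose and 0 fell, and at an unadjusted p under 0.05 (limma) 3 were lower and 1 higher, a share of lower genes no larger than that of all genes. The median was -0.26, and -0.12 after both quantile normalization and cyclic loess. Acss3, a short-chain acyl-CoA synthetase of mitochondria, read 2.79, 2.46 and 2.11 on UCP1 arrays, against 1.60, 1.26 and 1.21 on control arrays, with no overlap. It rose 1.81-fold, by 0.86 ± 0.167 on the log2 scale (SE, limma, adjusted p = 0.0219). The 4 calls were lost without UCP1 3, at adjusted p = 0.124 for Apoc3, 0.128 for Vldlr, 0.0725 for Fabp12 and 0.0754 for Acss3, and by eBayes without its trend, at 0.252, 0.252, 0.265 and 0.236. Without the trend 0 of all tested probes passed, so that loss is not particular to these genes. The call on Vldlr was also lost after cyclic loess (limma, adjusted p = 0.108). It was lost too without control 1, 2 or 3 (limma, adjusted p = 0.110, 0.0977 and 0.0743). The call on Acss3 was lost without control 2 or 3 (limma, adjusted p = 0.0737 and 0.0617). That on Apoc3 was lost without control 1 (limma, adjusted p = 0.0697).

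**Figure D4:**
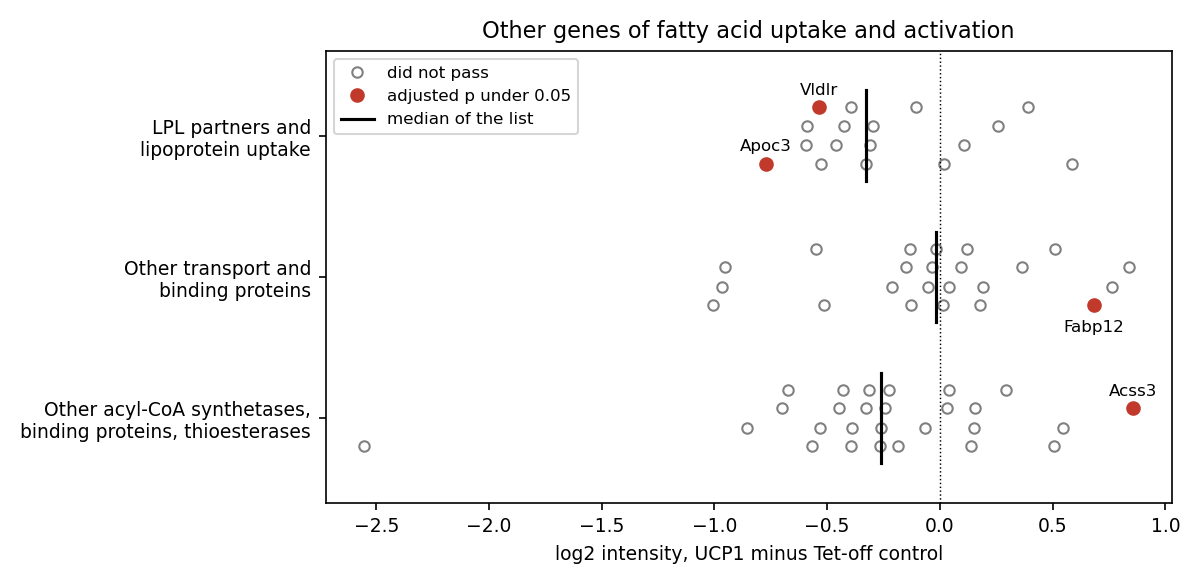
Change in log2 intensity, UCP1 minus Tet-off control, for the 67 measured genes of the 3 pathway lists, each by its brightest probe. Filled circles passed the threshold (Vldlr, Apoc3, Fabp12 and Acss3), open circles did not, and black bars mark list medians in the deposited scaling at -0.33, -0.019 and -0.26. The point far to the left is Acbd3, at -2.55 ± 2.02 (SE), a dim probe that did not pass.

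Cell type markers were read beside these results. Adipocyte markers were bright, with Adipoq at 818 ± 125 in UCP1 adipocytes and 879.6 ± 45.6 in control adipocytes (SD, n = 3 each), and 7 of 8 measured lay above the array median on every array. The exception was Lipe, the hormone-sensitive lipase, at 0.127 to 0.222 on UCP1 arrays and 0.0918 to 0.192 on control arrays. Of the 8, 0 passed (limma), with 2 lower at an unadjusted p under 0.05, and their summed intensity was 1656 to 2158 on UCP1 arrays and 1956 to 2200 on control arrays. Adipoq and Retn, large parts of that sum, reached up to 100% and 78.2% of the array maximum on UCP1 arrays. Whether this limited their changes was not tested. The list median had no settled sign, at -0.13 in the deposited scaling, 0.18 after quantile normalization, 0.18 after cyclic loess and 0.012 without UCP1 3. Of 10 preadipocyte and fibroblast markers 4 rose, Pdgfra, Thy1, Dcn and Lum, where 1.13% of all genes rose. At an unadjusted p under 0.05 (limma) 6 were higher and 1 lower. The 3 with a change below 0 were Fn1 (-0.43), Col1a1 (-0.21) and Col3a1 (-0.060), none past the threshold. The list had a median of 0.51 and a summed intensity of 925 to 1197 on UCP1 arrays and 922 to 1145 on control arrays. Most of that sum was Col3a1, at 511 to 669 on UCP1 arrays and 532 to 734 on control arrays. Its probe was near the array maximum, so the sum says little of the other markers. The count of markers that rose was 6 after quantile normalization, 6 after cyclic loess and 1 without UCP1 3. Probes of a gene differed, since the other Pdgfra probe stood at 0.16 (limma, adjusted p = 0.851) and the dimmer Dlk1 probe rose by 1.08 (limma, adjusted p = 0.00526) where the brighter one did not pass. The part of these cells in the changes of Slc27a4, Apoc3, Vldlr, Fabp12 and Acss3 was not tested. Of 5 macrophage markers 1 rose, Lyz2, by 1.48 (limma, adjusted p = 0.00571), while the defining markers Adgre1 and Ptprc were dim, at 0.129 and 0.117 on average in UCP1 adipocytes and 0.231 and 0.116 in control adipocytes. Cd14 was the 1 macrophage marker above the array median on every array, at 10.5 to 11.4 on UCP1 arrays and 9.99 to 14.4 on control arrays, and did not pass (limma, adjusted p = 0.482). The 7 endothelial and 6 muscle markers did not pass (limma, 0 and 1 at an unadjusted p under 0.05), and none lay above the array median on every array.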

How the data were processed

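The authors deposited intensities on a linear scale, with every array median close to 1. Scanning, background correction and scaling are steps not given in the sources used here. Values coded -9999 were taken as missing, and before log2 any value of 0 or less took the lowest positive value found on its array. Testing needed a value on at least 2 arrays per group, which 36116 of 36227 probes had. UCP1 and control arrays were compared by limma 3.58.1 under R 4.3.3 (lmFit, eBayes with an intensity trend, two-sided), with Benjamini-Hochberg adjustment over all tested probes and a threshold of 0.05. These steps were tested on simulated data with independent noise. Its spread came from the same fit with the intensity trend, so the simulation could not check that trend. No detection mark was used, and the number of arrays limits the precision. Probe brightness depends on the probe, so levels of different genes were not compared.

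All member probes were named. In each pathway list a gene stood for its brightest probe by mean log2 intensity, and called genes, at most 4, were named. Genes outside this rule were chosen after their values were seen. Members and lists were chosen with earlier results of these data known. Replicate numbers of the UCP1 arrays follow sample order and are not known to pair them with control arrays. Alternatives were an offset of 0.2 before log2, quantile, cyclic loess and median scaling, the brighter probes, only probes measured on each of the 6 arrays, robust eBayes, eBayes without the trend, array weights, an ordinary test per probe, the replicate block and each array left out. Symbols follow the platform annotation, updated through gene identifiers to RefSeq names.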

Additional observations from a re-analysis of the deposited data

How the results depend on the processing

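Changes near 0 had no settled sign. Under quantile normalization and cyclic loess, Lpl turned to 0.089 and 0.28, Fabp4 to 0.24 and 0.25, Fabp5 to 0.0061 and 0.0069 (169095) and to 0.15 and 0.11 (232023), Slc27a1 to 0.11 and 0.11, Dbi to 0.26 and 0.17, and the median over the 8 genes to 0.13 and 0.14. Acsl3 turned to -0.034 with array weights. With each array left out in turn, Lpl ranged from -0.16 to 0.096, Fabp4 from -0.21 to 0.12, Slc27a1 from -0.27 to 0.11 and Acsl3 from -0.083 to 0.066, none past the threshold, while Slc27a4 (142090) stayed between -0.73 and -0.49. The difference Fabp5 minus Fabp4 ranged from -0.24 to 0.0014 and Slc27a4 minus Slc27a1 from -0.63 to 0.015.

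The 1 member gene called lower, Slc27a4, became 0 with quantile normalization, with cyclic loess, with eBayes without the trend, with the ordinary test and with the replicate block, and 0 to 1 with an array left out. Without UCP1 1 the gene called was still Slc27a4, by probe 303097 and not 142090. Of the 2 genes called lower among the lipase partners, 1 was left by quantile normalization and 1 by cyclic loess, which also called 1 gene higher each, 4 were called with the brighter probes alone and 4 with array weights, 0 without the trend and 0 by the ordinary test. With an array left out that count ranged from 0 (without UCP1 3, and without control 1) to 7 (without UCP1 1). Among other transport and binding proteins, the 1 gene called higher became 2 under quantile normalization and 0 without the trend and 0 by the ordinary test, and 0 to 1 with an array left out. Genes called lower there went to 1 with the offset, 1 with the brighter probes and 1 with array weights, and 0 to 2 with an array left out. Among other synthetases, binding proteins and thioesterases, the 1 gene called higher became 0 without the trend and 0 by the ordinary test, and 0 to 1 with an array left out, and genes called lower went to 2 with the brighter probes and 1 with array weights, and 0 to 3 with an array left out.

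Over all probes, 732 were called lower and 289 higher. These counts were 446 and 567 with quantile normalization, 460 and 517 with cyclic loess, 1716 and 523 with the brighter probes alone, 1382 and 429 with array weights, 0 and 0 without the trend (3336 and 1615 at an unadjusted p under 0.05), and 2 and 1 by the ordinary test. With an array left out they ranged from 93 (without UCP1 3) to 1610 (without UCP1 1) lower and from 66 (without UCP1 3) to 395 (without UCP1 2) higher. The replicate block gave 551 and 225. The numbers are accession order for UCP1, and same-numbered arrays deviated with correlations of -0.24, -0.0069 and 0.10. Across unlike numbers the correlations ran from -0.36 (UCP1 2 with control 3) to 0.35 (UCP1 2 with control 1). The block thus rests on numbers not known to mark shared handling, and whether arrays of the groups shared a batch was not tested. The cause of the shifts in these counts was not tested. The bright end of the scale may limit what Lpl, Fabp4, Fabp5 and Dbi can show, which was not tested, and low signal limits Acsl4.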

Other observations

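Cd36 and Acsl1 had no probe of their own, and the values that follow were chosen after they were seen. Scarb1, a scavenger receptor related to Cd36, read 3.35, 7.54 and 4.14 on UCP1 arrays, against 12.4, 8.96 and 7.61 on control arrays. The groups did not overlap, as on 14.0% of all tested probes in that direction, though UCP1 2 came close to control 3. The Scarb1 change of -1.01 ± 0.259 (SE) did not pass (limma, adjusted p = 0.0627). Angptl4, a secreted inhibitor of lipoprotein lipase and a PPAR target, read 137, 142 and 113 on UCP1 arrays, against 199, 205 and 185 on control arrays. Its groups did not overlap, as on 14.0% of all tested probes in that direction, and its change of -0.59 ± 0.159 (SE) did not pass (limma, adjusted p = 0.0717), nor did its change of -0.37 after quantile normalization (limma, adjusted p = 0.0684). Acss2, which makes acetyl-CoA in the cytosol and nucleus, stood at 25.4 ± 4.20 in UCP1 adipocytes and 36.6 ± 3.95 in control adipocytes (SD, n = 3 each), also without passing (limma, adjusted p = 0.0705). Fabp3, the heart fatty acid binding protein, was dim, at 0.219, 0.275 and 0.258 on UCP1 arrays, against 0.454, 0.521 and 0.488 on control arrays, with a change of -0.97 ± 0.317 (SE, limma, adjusted p = 0.131). Not all such genes were lower. By the brightest probe Scarb2 stood at 0.12 (limma, adjusted p = 0.721), with its other probes at -0.06 and -0.29. Acsl5 stood at 0.29 (limma, adjusted p = 0.335) and Acsl6 at -0.065 (limma, adjusted p = 0.854). Cavin1 stood at 0.37 (limma, adjusted p = 0.133), with its other probe at -0.55.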
